A study of Homo sapiens with 2 samples.

Results

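The genes described here are 10 genes of the endoplasmic reticulum (ER) unfolded protein response, with the stress sensor IRE1 (gene ERN1) at the head of one of its branches. They were chosen by their role in this response and with their TPM differences between the 2 libraries of the series already known, so every value below is a description. They are ERN1, ATF6, XBP1, HSPA5, CALR, DNAJB9, SDF2L1, MANF, HERPUD1 and EDEM1, 10 of the 11582 genes with a mean of at least 1 TPM (a transcript level corrected for length and scaled to a total of 1000000 in each library). HepG2 is a human liver cancer line, and the cells used carried a doxycycline (Dox) inducible cassette for SAMD4B, which belongs to the Smaug family of RNA-binding proteins. The group without Dox is 1 library of such cells. The group with Dox is 1 library of such cells given 1 µg/ml Dox, and 48 h of culture is stated for both. With 1 library per group there is no spread between replicates and no p-value, and each difference is one between 2 libraries. Cells given Dox without the cassette were not analysed here, so Dox itself and SAMD4B cannot be told apart. Less RNA per cell and fewer cells of a type cannot be told apart in such bulk RNA either.

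The unfolded protein response adjusts the folding capacity of the ER, the compartment through which liver cells pass the plasma proteins they secrete. Unfolded protein is sensed by IRE1, PERK and ATF6. IRE1 is a membrane kinase whose RNase cuts a short intron out of XBP1 mRNA in the cytoplasm, after which the frame shifts and the mRNA codes for the active factor XBP1s. PERK slows translation through eIF2alpha, with the transcription factor ATF4 downstream, and ATF6 is cut in the Golgi to free a transcription factor. XBP1s and ATF6 switch on chaperones such as HSPA5 and the factors that pull misfolded protein out of the ER for degradation.

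SAMD4B was at 47.5 TPM without and 261 TPM with Dox, higher in the library so labelled. The depth, estimated from the step between low TPM values, was 18246705 fragments without and 23598780 with Dox. It counts only transcripts of at least 600 nt with a match in the annotation, so it is not the depth of the whole library. All 9 hepatocyte markers looked up lay between 81.8 and 13406 TPM without Dox and between 64.5 and 14590 TPM with Dox. Of these 9, 7 were lower and 2 higher with Dox, all by less than 1.5-fold, with a median log2 fold change of -0.14. Of 8 markers of other cells, 5 were under 1 TPM in both libraries, with PTPRC, VWF and KRT7 at 0 and COL1A1 and COL3A1 just above 0. The other 3 were ACTA2, a smooth muscle actin, at 61.3 and 36.7 TPM, CD68, a macrophage marker, at 10.7 and 11.3 TPM, and PECAM1, an endothelial marker, at 4.57 and 4.55 TPM. Summed over the 8 markers, the level was 76.9 TPM without and 52.6 TPM with Dox.

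At the gene level, 1 member (ERN1) was at least 1.5-fold higher with Dox on the scale of TPM plus 1, where 5.32% of the 11582 genes were. Another member (MANF) was at least 1.5-fold lower, where 3.9% of all genes were. The other 8 differed by less than 1.5-fold. Of the 10 members, 5 were higher and 5 lower, and their median log2 fold change was -0.09, beside 0.02 over all genes. The choice of members used these same values, so nothing is read from the counts. The members spanned a wide range of levels, from ERN1 and ATF6 at 1.63 and 8.59 TPM without Dox to CALR at 1412 TPM, and CALR was the highest in both libraries. By level the order differed in 3 pairs of neighbours, XBP1 and HSPA5, SDF2L1 and DNAJB9, and ATF6 and ERN1, each of which changed places. Of the 60 transcripts of these genes in the table, 47 were above 0 in a library and 40 reached 0.5 TPM.

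**Figure D1:**
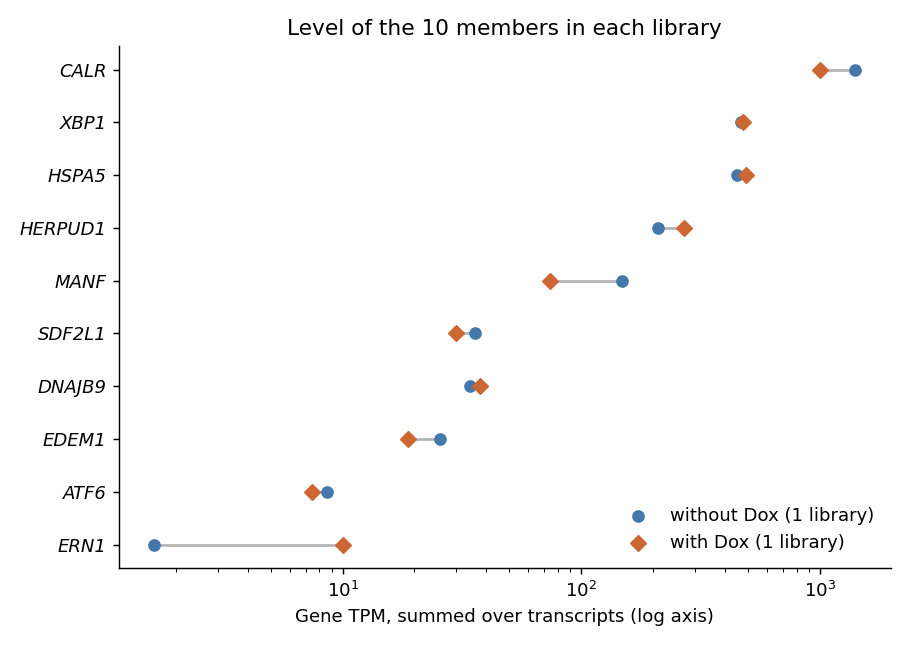
TPM of each of the 10 genes on a log axis, with 1 point for the library without Dox (circle) and 1 for the library with Dox (diamond). ERN1 and MANF have the widest gaps, ERN1 towards a higher and MANF towards a lower value with Dox.

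ERN1 (ENSG00000178607, chromosome 17, 64039142 to 64130819, minus strand, GRCh38), the gene of the IRE1 sensor, was at 1.63 TPM without and 10.0 TPM with Dox. It ranked 40 from the top of the 11582 genes by log2 fold change (2.07). The difference lay mostly in a single transcript. ERN1-201 (ENST00000433197), which codes for the full IRE1 protein of 977 residues in 22 exons, was listed at 0 without Dox and at 6.25 TPM with Dox. The table thus listed no full-length ERN1 mRNA in the library without Dox, although a single fragment on this long transcript would have given about 0.0089 TPM. The same library held spliced XBP1 mRNA, the product of the IRE1 RNase, at 58.6 TPM. Whether full-length ERN1 mRNA was absent from these cells was not tested. With Dox the value of ERN1-201 corresponded to about 881 estimated fragments.

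The other ERN1 transcripts were shorter and most do not code for protein. ERN1-202, a processed transcript of 398 nt, was at 0.72 TPM without and 2.76 TPM with Dox. ERN1-208, a single-exon transcript at the start of the gene with a reading frame of 70 residues, was at 0.64 and 0.75 TPM (17 and 25 estimated fragments). ERN1-203 and ERN1-207, both with a retained intron, had 0.27 and 0 TPM and 0 and 0.24 TPM, and ERN1-205 and ERN1-206 were at 0 in both libraries. The ERN1 values without Dox therefore came from transcripts that end at 64067860 or upstream of it, and none covers the last exons, which code for the kinase and RNase parts of IRE1.

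With ERN1-201 left out, as an all-or-none value, the log2 fold change of ERN1 was 0.86 in place of 2.07. It was 1.18 with a pseudocount of 5 TPM. In estimated fragments on transcripts of at least 600 nt, with no pseudocount, it was 5.39. A value listed at 0 in such a table can be a failed estimate, and fragments that the authors' run gave to an ERN1 transcript without a match in the annotation are missed here. Whether either applies was not tested. Such listings were common: of 38227 transcripts with 1 TPM or more in a library, 13% were listed at 0 in the other. Among the members this held for 5 of 33 transcripts, namely ERN1-201, HERPUD1-207, HERPUD1-210, EDEM1-207 and DNAJB9-203.

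**Figure D2:**
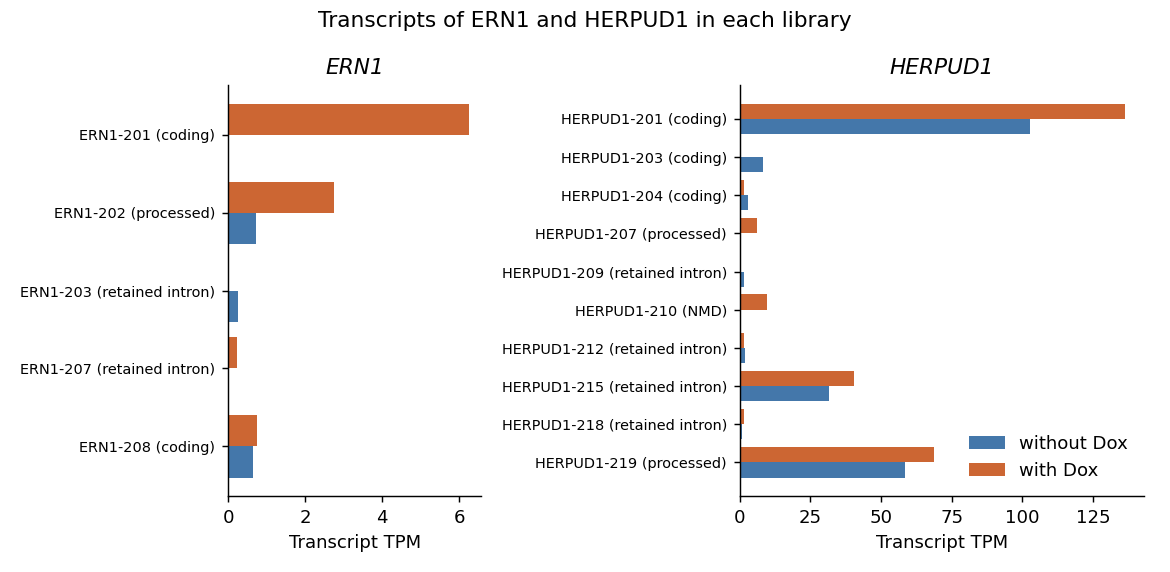
TPM of each ERN1 transcript above 0 (left) and of each HERPUD1 transcript at 1 TPM or more in a library (right), with 1 bar per library. ERN1-201, HERPUD1-207 and HERPUD1-210 have a bar only with Dox, and HERPUD1-203 is at 8.41 TPM without and 0.61 TPM with Dox.

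XBP1 mRNA gives a readout of what the IRE1 RNase does, because spliced and unspliced forms are separate transcripts in the table. The stretch around the intron is shown because, apart from the transcript ends, these letters are all that tells the main forms apart. It lies on chromosome 22 at chr22:28796100-28796173 (GRCh38, minus strand), inside a coding exon, and was read from the GENCODE transcripts, 5′ to 3′, with the 26 bases that IRE1 removes in capitals.
XBP1-201, unspliced: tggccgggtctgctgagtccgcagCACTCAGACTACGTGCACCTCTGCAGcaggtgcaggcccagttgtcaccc
XBP1-207, spliced: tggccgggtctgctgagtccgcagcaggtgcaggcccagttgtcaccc
The intron is annotated at 28796124 to 28796149. Its 26 bases are no multiple of a codon, so the frame after it differs: XBP1-201 codes for 261 residues and XBP1-207 for 376. XBP1-202, a second spliced transcript limited to the coding sequence, was at 0 in both libraries.

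Spliced XBP1 was present in both libraries at nearly the same level. XBP1-207 (ENST00000611155) was at 58.6 TPM without and 57.0 TPM with Dox. The main unspliced transcript XBP1-201 (ENST00000216037) was at 379 TPM without and 387 TPM with Dox. The spliced form made up 12.5% of XBP1 TPM without Dox and 12.0% with Dox. In estimated fragments these shares were 12.2% without Dox (1294 of 10643 fragments, 95% Clopper-Pearson interval 11.5% to 12.8%) and 11.7% with Dox (1585 of 13591, interval 11.1% to 12.2%). The intervals overlap, but no interval of the difference between the shares was computed, so no difference in splicing is claimed. Both intervals cover counting error only. They leave out how fragments were shared between the forms, which rests on the fragments over the 26 bases and on transcript ends that differ by 25 bases at the start and 5 at the end.

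XBP1 as a gene (ENSG00000100219, chromosome 22, 28794555 to 28800597) was at 470 TPM without and 475 TPM with Dox, and its fragment ratio (estimated fragments with Dox over those without, each divided by the depth of its library) was 0.99, with a 95% counting interval of 0.96 to 1.01. This near-equal sum held transcripts that differed in opposite directions. XBP1-204, which starts from another first exon (28799960 to 28800133, 464 bases downstream of the main start) and codes for 211 residues, was at 5.77 TPM without and 14.3 TPM with Dox (fragment ratio 2.40, interval 1.95 to 2.98). XBP1-203, a coding form of 266 residues, was at 11.3 and 6.62 TPM (0.57, interval 0.47 to 0.69). The retained-intron transcripts XBP1-205 (4.58 and 1.43 TPM) and XBP1-206 (10.5 and 8.01 TPM) were both lower with Dox. At the transcript level such differences were frequent in the whole table: 14% of 32570 transcripts with a mean of at least 1 TPM were 1.5-fold or more higher with Dox, and 12.8% were lower by as much. Of 30 member transcripts at this level, 5 were higher and 8 lower by that much.

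**Figure D3:**
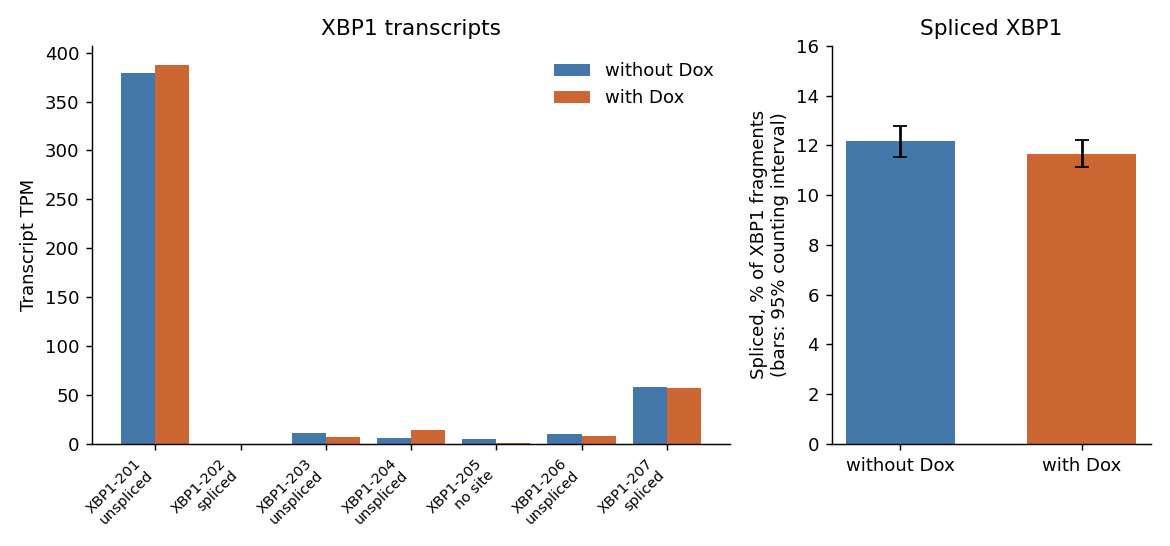
Left, TPM of the 7 XBP1 transcripts in each library, marked as spliced or unspliced at the IRE1 site or as lacking it (XBP1-205). Right, the spliced share of XBP1 fragments with its 95% counting interval, at 12.2% without Dox and 11.7% with Dox.

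ATF6 (ENSG00000118217, chromosome 1, 161766294 to 161964070), the sensor that becomes a transcription factor, was at 8.59 TPM without and 7.42 TPM with Dox, all of it on the coding transcript ATF6-201. Its fragment ratio was 0.84 (interval 0.77 to 0.92), a difference larger than counting error and smaller than 1.5-fold.

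Among the ER chaperones, MANF had the largest difference. MANF (ENSG00000145050, chromosome 3, 51385047 to 51389397), a small secreted protein that binds the chaperone HSPA5 in the ER, was at 149 TPM without and 73.9 TPM with Dox. The log2 fold change was -1.0, which placed MANF at percentile 0.97 of all genes, and the fragment ratio was 0.49 (interval 0.45 to 0.52). The coding transcript MANF-204 (ENST00000528157) carried the difference, at 146 and 73.5 TPM. Over the 9 alternative settings the log2 fold change of MANF stayed between -1.04 and -0.96. Its retained-intron transcripts MANF-203 and MANF-205 summed to 1.75 TPM without Dox and 0.11 TPM with Dox, and the processed form MANF-202 was at 0.51 and 0.27 TPM.

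CALR (ENSG00000179218, chromosome 19, 12938578 to 12944489), the calcium-binding lectin chaperone calreticulin, was at 1412 TPM without and 1006 TPM with Dox. It is the most abundant member, and its fragment ratio of 0.69 had a narrow interval (0.68 to 0.70). The ratio of its TPM values, 0.71, lay outside this interval. Coding transcripts held 99.3% of its TPM without Dox and 99.4% with Dox, nearly all on CALR-201 (1398 and 998 TPM). Its retained-intron transcripts CALR-203, CALR-205 and CALR-207 were lower too, at a sum of 7.92 and 2.77 TPM (fragment ratio 0.36, interval 0.22 to 0.57). The remaining forms were CALR-206 (3.4 and 2.0 TPM), CALR-202 (0.58 and 0.13 TPM) and CALR-204, annotated as a substrate of nonsense-mediated decay, at 1.72 and 3.06 TPM. Over all genes the retained-intron class differed little, with a ratio of 0.99 between its summed TPM with and without Dox. SDF2L1 (ENSG00000128228, chromosome 22, 21642261 to 21644298), an ER protein that works with HSPA5 and its J-domain partners, was at 35.8 TPM without and 30.02 TPM with Dox (fragment ratio 0.80, interval 0.68 to 0.95). Nearly all of this was the coding transcript SDF2L1-201 (35.54 and 28.998 TPM), beside a retained-intron form, SDF2L1-202, at 0.25 and 1.03 TPM.

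HSPA5 and DNAJB9 went slightly the other way. HSPA5 (ENSG00000044574, chromosome 9, 125234853 to 125241330) codes for BiP, the main ER chaperone and the usual marker of ER stress. It was at 450 TPM without and 491 TPM with Dox on its only transcript, HSPA5-201. The fragment ratio was 1.06 (interval 1.05 to 1.08), while the ratio of its TPM values was 1.09, outside this interval. DNAJB9 (ENSG00000128590, chromosome 7, 108569568 to 108574850), a J-domain partner of BiP and a known target of XBP1s, was at 34.2 TPM without and 37.6 TPM with Dox (1.04, interval 0.97 to 1.12), within counting error. DNAJB9-201, its coding transcript, was at 34.2 and 36.6 TPM, and the rest with Dox was the retained-intron form DNAJB9-203 at 1.02 TPM, listed at 0 without Dox. Its exons share 183 bases with THAP5 and 99 with PNPLA8 on the opposite strand. THAP5 was at 18.8 and 19.5 TPM, and whether strand was used in counting is not given in the sources used here. The same limit holds for CALR and EDEM1. Their exons share 270 bases with AC092069.1 (CALR) and 653 with AC026202.3 (EDEM1) on the opposite strand, genes without a TPM here.

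Both members of ER-associated degradation differed by less than 1.5-fold, in opposite directions. HERPUD1 (ENSG00000051108, chromosome 16, 56932048 to 56944863), a membrane protein that organizes the degradation complex, was at 209 TPM without and 269 TPM with Dox (fragment ratio 1.19, interval 1.14 to 1.24). EDEM1 (ENSG00000134109, chromosome 3, 5187646 to 5219957), a mannosidase-like protein that marks misfolded glycoproteins for removal, was at 25.6 TPM without and 18.9 TPM with Dox (0.79, interval 0.74 to 0.84). EDEM1-207, a retained-intron fragment of 307 nt, was at 2.40 TPM without Dox and at 0 with Dox. The coding transcript EDEM1-201 alone was at 23.0 and 18.7 TPM.

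HERPUD1 had the most complex transcript mix of the 10 genes, with 19 annotated transcripts in the table. Only 54.6% of its TPM without Dox and 51.9% with Dox lay on coding transcripts. The main coding form HERPUD1-201 (390 residues) was at 103 TPM without and 136 TPM with Dox (fragment ratio 1.29, interval 1.23 to 1.36). HERPUD1-203 skips exon 3, a stretch of 72 bases (56935404 to 56935475), and lacks 24 residues in frame. It was at 8.41 TPM without and 0.61 TPM with Dox, about 184 and 17 estimated fragments (0.07, interval 0.04 to 0.12). Non-coding transcripts held most of the rest. The processed transcript HERPUD1-219 was at 58.7 and 68.8 TPM and the retained-intron transcript HERPUD1-215 at 31.7 and 40.5 TPM. A long coding form, HERPUD1-204 (391 residues), was at 2.86 and 1.71 TPM (0.58, interval 0.43 to 0.78). HERPUD1-210, annotated as a substrate of nonsense-mediated decay, and the processed transcript HERPUD1-207 were listed at 0 without Dox and at 9.8 and 6.0 TPM with Dox. The remaining HERPUD1 transcripts at 0.5 TPM or more were minor, HERPUD1-212 at 1.95 and 1.49 TPM, HERPUD1-209 at 1.41 and 0.42, HERPUD1-218 at 0.82 and 1.504, HERPUD1-216 at 0.45 and 0.85, and HERPUD1-214 at 0 and 0.52. The coding share of HERPUD1 TPM was thus slightly lower with Dox although its main coding transcript was higher.

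**Figure D4:**
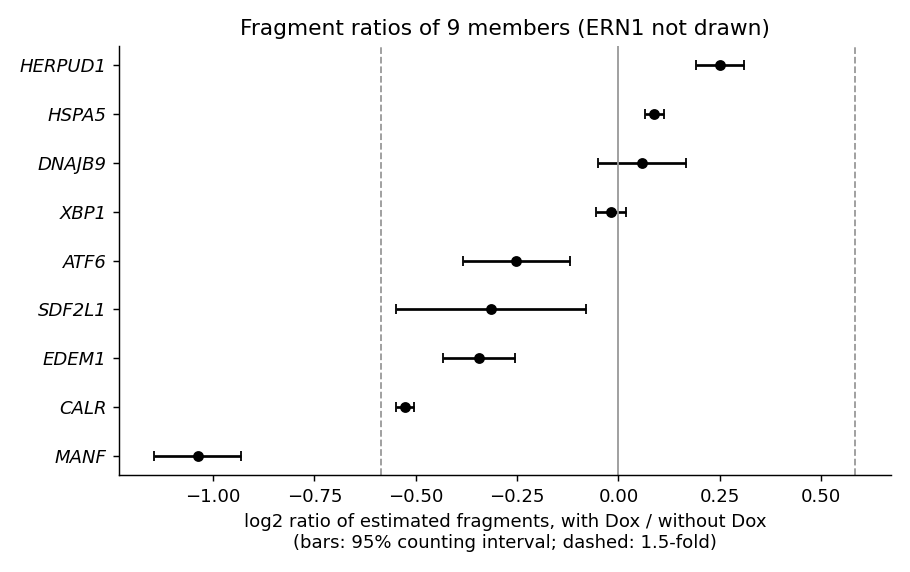
Ratio of estimated fragments with Dox to without Dox, relative to depth, on a log2 axis for 9 members, with 95% counting intervals. ERN1 is left out because its main transcript is listed at 0 without Dox. MANF lies beyond the dashed 1.5-fold line, and the intervals of XBP1 and DNAJB9 include a ratio of 1.

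The promoters of the members were searched for the response elements through which ATF6 and XBP1s act, in 300-base windows from RefSeq (GRCh38.p14, 250 bases before to 50 after the start). All 10 members had a window, and XBP1 had 2. Both strands were searched for ERSE (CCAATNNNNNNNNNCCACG), ERSE-II (ATTGGNCCACG) and the core of the UPRE (TGACGTGG). ERSE was found in 3 members, ERSE-II in 2 and the UPRE core in 0. Of 35116 promoter windows in the table, 0.077% held ERSE, 0.054% ERSE-II and 0.73% the UPRE core. These elements were first defined on genes of this response, so their presence here is no independent feature. The matching stretches are given with the motif in capitals and 5′ to 3′ along the gene.
HSPA5, ERSE, chr9:125241376-125241424, minus strand: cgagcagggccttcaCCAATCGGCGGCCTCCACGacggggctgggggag
CALR, ERSE on the opposite strand, chr19:12938369-12938417, plus strand: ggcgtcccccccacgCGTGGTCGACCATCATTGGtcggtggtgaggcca
XBP1, ERSE, chr22:28800588-28800636, minus strand: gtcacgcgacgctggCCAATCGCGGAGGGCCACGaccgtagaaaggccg
HERPUD1, ERSE-II, chr16:56932010-56932050, plus strand: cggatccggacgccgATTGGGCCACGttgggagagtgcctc
SDF2L1, ERSE-II on the opposite strand, chr22:21642099-21642139, plus strand: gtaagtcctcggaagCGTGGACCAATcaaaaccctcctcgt
Of the 3 genes with ERSE, CALR was lower with Dox (fragment ratio 0.69), HSPA5 slightly higher (1.06) and XBP1 level (0.99). Of the 2 with ERSE-II, HERPUD1 was higher (1.19) and SDF2L1 lower (0.80). MANF, EDEM1, DNAJB9, ATF6 and ERN1 had no exact match in these windows, which says nothing about the factors themselves. The window at the alternative XBP1 start held no match either.

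The wider pathway was followed through 8 lists, of which 93 genes outside the 10 members had a mean of at least 1 TPM. Past 1.5-fold were 3 of these 93 genes in either direction (3.23% each, beside 5.32% and 3.9% of all genes), and the median log2 fold change was 0.05. HYOU1 and SESN2 were not analysed here.

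Partners of IRE1 showed little difference beside ERN1. Of 6 measured genes of this list, members included, 1 was at least 1.5-fold higher and 0 lower. RTCB, the ligase that joins the cut ends of XBP1 mRNA, was at 123 TPM without and 125 TPM with Dox, and TRAF2, an adaptor of the IRE1 kinase, at 9.76 and 9.91 TPM. ZBTB8OS, the ligase cofactor archease, was at 80.3 and 66.8 TPM. ERN2, the gut paralogue of ERN1, was at 0.02 and 0.35 TPM, under the filter.

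The other sensors went both ways. EIF2AK3, the gene of PERK, was at 2.24 TPM without and 8.06 TPM with Dox (log2 fold change 1.48). As with ERN1, part of this came from a transcript listed at 0 without Dox, EIF2AK3-202, at 3.30 TPM with Dox. The longer EIF2AK3-201 was itself higher, at 2.24 and 4.60 TPM (fragment ratio 2.0, interval 1.64 to 2.44). ATF6B, the close relative of ATF6, was at 26.2 TPM without and 16.1 TPM with Dox (0.60, interval 0.54 to 0.66), lower on its transcripts ATF6B-210 (18.6 and 12.6 TPM) and ATF6B-209 (6.48 and 1.86 TPM). Of the 8 genes of this list these were the 1 at least 1.5-fold higher and the 1 at least 1.5-fold lower. With a pseudocount of 5 TPM the count of lower genes was 0.

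ER chaperones had a median log2 fold change of 0.05 over 16 measured genes, and 2 of them, MANF and PPIB, were at least 1.5-fold lower and 0 higher by that much. PPIB, the ER proline isomerase cyclophilin B, was at 1157 TPM without and 701 TPM with Dox (fragment ratio 0.59, interval 0.57 to 0.60). HSP90B1, the ER form of HSP90, was at 1231 and 1386 TPM. The lectin chaperone CANX was at 59.6 and 70.6 TPM, but this value comes almost wholly from CANX-204, a transcript of 570 nt. None of the 13 protein disulfide isomerases and oxidases passed 1.5-fold. Their median was 0.07, and the largest differences were those of ERO1A (43.9 and 53.0 TPM), which reoxidizes the isomerases, and the peroxiredoxin PRDX4 (216 and 260 TPM).

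In ER-associated degradation 0 of 21 measured genes passed 1.5-fold in either direction, and the median was 0.02. HERPUD2, the paralogue of HERPUD1, came closest, at 8.66 TPM without and 13.5 TPM with Dox (fragment ratio 1.32, interval 1.14 to 1.53). With a pseudocount of 0.1 TPM, or rescaled without mitochondrial transcripts, 1 gene of this list, HERPUD2, was at least 1.5-fold higher. SEL1L and SYVN1, the core of the main degradation complex, had 31.9 and 37.8 TPM (SEL1L) and 20.9 and 23.8 TPM (SYVN1). Of the 20 translocon, signal peptidase and coat genes, 1 was at least 1.5-fold lower. This was SRPRB, a subunit of the signal recognition particle receptor, at 25.9 and 16.5 TPM, and its difference lay in the retained-intron transcript SRPRB-205 (21.8 and 10.3 TPM). Only 22.2% of SRPRB TPM lay on transcripts of 600 nt or more, where the fragment ratio was 1.08 (interval 0.79 to 1.49). SEC61A1, the pore of the translocon, was at 204 TPM without and 147 TPM with Dox (0.71, interval 0.69 to 0.73).

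In the PERK branch downstream of eIF2alpha, 1 of 9 measured genes was at least 1.5-fold higher and 0 lower. Over all genes these shares were 5.32% and 3.9%. By any amount, 7 of the 9 were higher, where 53.0% of all genes were, with a median of 0.18. PPP1R15A, the feedback phosphatase subunit GADD34, was at 16.4 TPM without and 37.2 TPM with Dox (fragment ratio 2.20, interval 1.99 to 2.45). DDIT3, which codes for CHOP, was at 22.3 and 31.7 TPM (1.35, interval 1.13 to 1.62), while ATF4 itself was at 20.9 and 19.4 TPM (0.92, interval 0.81 to 1.04). In estimated fragments 2 genes of this list were past 1.5-fold, PPP1R15A and ATF3, a stress-induced factor (1.68, interval 1.33 to 2.13), which was at 9.66 and 10.2 TPM. Only 58.6% of ATF3 TPM lay on transcripts of 600 nt or more, the part that this ratio covers.

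Reported substrates of the decay that the IRE1 RNase can carry out on other mRNAs were looked at as well. None of the 10 was at least 1.5-fold lower with Dox, and 9 of 10 were higher, where 53.0% of all genes were, with a median of 0.16. BLOC1S1, the best known of them, was at 51.6 TPM without and 49.3 TPM with Dox. In TPM, PDGFRB was the 1 gene past 1.5-fold, at 4.11 and 7.35 TPM, with 3.71 TPM on PDGFRB-204, which was listed at 0 without Dox. The longer PDGFRB-201 was at 1.18 and 2.67 TPM, while PDGFRB-202 was at 2.10 and 0.51 TPM. With all-or-none transcripts left out, 0 genes of the list passed 1.5-fold. In estimated fragments 2 genes did, PDGFRB (1.71, interval 1.39 to 2.12) and the integrin ITGB2 (6.19, interval 4.27 to 9.24). ITGB2 as a whole was at 8.24 TPM without and 10.5 TPM with Dox, with 34.8% of it on transcripts of 600 nt or more.

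**Figure D5:**
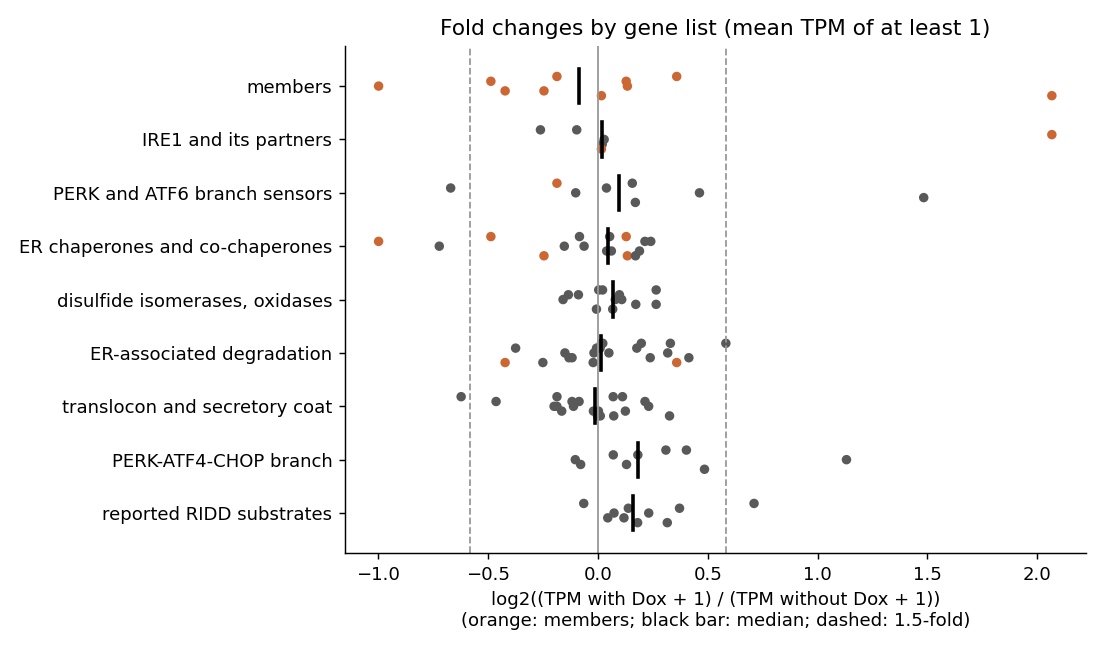
Log2 fold change of each gene with a mean of at least 1 TPM, by gene list, with the 10 members in orange, list medians as black bars and 1.5-fold as dashed lines. Most genes lie between the dashed lines, and ERN1 (2.07), EIF2AK3 (1.48) and PPP1R15A (1.13) lie farthest to the right.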

How the data were processed

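Polyadenylated RNA of 2 HepG2 libraries was analysed. The authors deposited TPM values for 184844 Ensembl transcripts. Trimmomatic, Salmon and GRCh38.p13 are named per the submitters' processing notes, with versions and options not given in the sources used here. Salmon shares fragments among transcripts that match equally well, so the TPM of a transcript can move between isoforms.

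Transcripts were matched to GENCODE release 29 (GRCh38) by identifier without version. Of these, 161798 matched, holding 93.3% of TPM in both libraries. For 13 of the 60 transcripts of the members the version differed, so their lengths are approximate. Gene values are sums of matched transcripts. Fold changes are log2 of TPM plus 1, with Dox over without. Single-transcript genes of at least 600 nt gave steps in TPM times length less 300 nt, and 86.3% of low values in both libraries lay within 0.1 of a whole number of fragments, a share to which step and offset were fitted. Fragment ratios, relative to estimated depth and on transcripts of at least 600 nt, have exact 95% Clopper-Pearson intervals for counting error only, since reads without molecular identifiers are not independent molecules. The intervals leave out the choice of scaling, and for HSPA5 and CALR the ratio of TPM values lay outside them. The computation (Python 3.11.15, scipy 1.17.1) was tested on simulated data.

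Members and lists were chosen with earlier results of these data known. Named genes are the members with their transcripts at 0.5 TPM or more, SAMD4B, and in each list those past 1.5-fold, or the 2 with the largest difference at a mean of at least 5 TPM. Others were chosen after their values were seen: the named cell markers, THAP5, PNPLA8, RTCB, TRAF2, ZBTB8OS, ERN2, HSP90B1, CANX, SEL1L, SYVN1, SEC61A1, SEC61B, DDIT3, ATF4, ATF3, ITGB2 and BLOC1S1. Protein sequences were not used here.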

Additional observations from a re-analysis of the deposited data

How the results depend on the processing

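The counts of members past 1.5-fold (1 higher, 1 lower) stayed the same under every alternative run. These runs were pseudocounts of 0.1 and 5 TPM, estimated fragments, coding transcripts only, no all-or-none transcripts, 2 other scalings and 2 other filters. The spliced XBP1 shares, recomputed on coding transcripts and on fragments only, moved by less than counting error. The median log2 fold change of the members, -0.09, lay between -0.13 (estimated fragments) and -0.06 (pseudocount of 5 TPM) in the alternative runs. No counting interval of this median was computed. Each member kept its sign under all 9 alternatives, except XBP1, at -0.02 in estimated fragments and level with 0 when scaled by the median ratio of genes. That median ratio (1.01) was the ratio of XBP1 itself, so its 0 there was set by the scaling. ERN1 depended most on the setting, from 0.86 to 5.39 on the log2 scale. The other scalings and filters moved the median of all genes by at most 0.02. Estimated fragments moved this median by -0.04, from 0.02 to -0.02. Over all genes, 235 were higher and 174 lower by 1.5-fold with a pseudocount of 5 TPM, and 344 and 262 at a mean of at least 5 TPM (fewer genes tested), in place of 616 and 452. These counts were 837 and 639 with a pseudocount of 0.1 TPM, and 562 and 545 in estimated fragments. Of 144 recomputed list counts, 9 moved, by 1 gene each. A count can stay the same with another gene. In estimated fragments the lower gene of the translocon list was SEC61B in place of SRPRB. SEC61B had only about 5 fragments without and 3 with Dox (ratio 0.46, interval 0.07 to 2.38). No replicate could be left out, so counting error is the only error known here.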
